A study of Mus musculus with 3 samples.

Results

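The sarcomeric myosin heavy chain genes Myh1, Myh2, Myh3, Myh4, Myh6, Myh7, Myh7b and Myh8 were examined in differentiated C2C12 cells. They were matched by symbol, and all 8 were found among the 46316 gene symbols of the deposited tables. C2C12 is a permanent line of mouse myoblasts, which fuse into myotubes in culture. RNA was sequenced from the wild type (WT), from cells with Drp1 knocked out according to the labels (KO), and from such KO cells that transiently expressed a FLAG-tagged Drp1 (rescue). All cells were taken after 4 days of differentiation, and each group had 1 library. Drp1, a dynamin-like GTPase, pinches mitochondria apart. The series title concerns muscle fibre type, which the myosin heavy chain isoforms define. The sources used here do not say whether the KO cells are 1 clone, or which part of the gene was deleted.

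Myosin heavy chains are the motor proteins of the thick filament, and their tails bundle to form it. The isoform a fibre carries sets how fast it shortens and how much ATP it spends. Embryonic Myh3 and perinatal Myh8 are used while muscle forms or regenerates. Adult fibres use the slow chain Myh7 (type I) or the fast chains Myh2 (IIa), Myh1 (IIx) and Myh4 (IIb). Myh6 is the alpha chain of the heart, and Myh7b is an older relative of the slow chains whose gene carries a microRNA.

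With 1 library per group there is no replicate error for any value given here, and each describes these libraries only. The WT library held 13894095 gene counts, KO 13790420 and rescue 13925312. Dnm1l, the gene of Drp1, had 1823, 1284 and 1481 counts in the same order. KO was lowest, 1.39-fold below WT (log2 ratio -0.48, -0.58 to -0.38) and 1.16-fold below rescue, so its RNA was still present in the library labelled KO. Ratios are log2 ratios after TMM scaling, and each bracketed range is a 95% counting interval, which covers counting error only. Levels are in RPKM, counts per kilobase of transcript scaled to the library's gene counts times its TMM factor. They were computed here and can be compared between the myosin heavy chain genes, whose rows have similar lengths. For other genes the level also depends on the length of the row used.

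Embryonic Myh3 dominated in every library. WT had 50576 counts, KO 62250 and rescue 77629, or levels of 594, 744 and 930. WT was the lowest and rescue the highest. By level it stood at rank 72, 47 and 44 among 11829 genes with an mRNA. The log2 ratio was 0.33 for KO against WT (0.31 to 0.34) and 0.32 for rescue against KO (0.31 to 0.34), so rescue lay 1.57-fold above WT and not between WT and KO.

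Perinatal Myh8 was, unlike Myh3, highest in WT and lowest in KO. WT had 333 counts of it, KO 44 and rescue 150, with levels of 3.86, 0.519 and 1.77. KO was 7.36-fold below WT (log2 ratio -2.88, -3.38 to -2.44), and rescue was 3.39-fold above KO (1.76, 1.28 to 2.29). Rescue remained 2.17-fold below WT (-1.12, -1.41 to -0.84). Against WT the 2 developmental isoforms thus lay on opposite sides, and from KO to rescue both were higher. In KO the counts of Myh8 per count of Myh3 were 9.31-fold lower than in WT (log2 odds ratio -3.22, -3.71 to -2.76).

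The adult fast chains did not move as 1 group. Myh1, the IIx chain and the most abundant isoform after Myh3 in WT, had 3941 counts in the WT library, 441 in KO and 2327 in rescue, or levels of 46.5, 5.30 and 28.0. KO was far below both other libraries. It was 8.77-fold below WT (log2 ratio -3.13, -3.28 to -2.99), and only 67 of 13381 genes had a lower ratio. Rescue was 5.28-fold above KO (2.40, 2.26 to 2.55), with 12 genes higher, and 1.66-fold below WT (-0.73, -0.81 to -0.66).

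Myh4, the IIb chain of the fastest fibres, had 441 counts in the WT library, 31 in KO and 111 in rescue, or levels of 5.20, 0.372 and 1.34. WT was high, and both other libraries were low. KO was 13.8-fold below WT (log2 ratio -3.78, -4.38 to -3.28). Rescue was 3.55-fold above KO (1.83, 1.26 to 2.47) and 3.88-fold below WT (-1.96, -2.28 to -1.66).

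Myh2, the IIa chain, had 373 counts in the WT library, 371 in KO and 279 in rescue, or levels of 4.37, 4.42 and 3.33. WT and KO were nearly equal, with a log2 ratio of 0.02 (-0.19 to 0.23). Rescue was the lowest, 1.33-fold below KO (-0.41, -0.64 to -0.18). The flat Myh2 count is sensitive to reads that fit more than 1 myosin gene, as the comparison of sequences further on shows.

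The slow and cardiac chains differed by less than counting error between WT and KO and were higher in rescue. Myh7, the slow chain, had 822 counts in the WT library, 741 in KO and 1584 in rescue, or levels of 9.27, 8.51 and 18.2. Myh6, the cardiac alpha chain, had 263, 249 and 555 counts, or levels of 3.11, 3.0 and 6.70. For KO against WT both intervals included 0, with log2 ratios of -0.12 (-0.27 to 0.02) for Myh7 and -0.05 (-0.31 to 0.20) for Myh6. For rescue against KO the ratios were 1.10 (0.97 to 1.23) and 1.16 (0.94 to 1.38). In rescue these genes lay above WT too, 1.96-fold for Myh7 and 2.15-fold for Myh6.

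Myh7b had the fewest reads, 117 in WT, 15 in KO and 47 in rescue, with levels of 1.36, 0.177 and 0.557. Like the fast chains Myh1 and Myh4 and like Myh8, it was highest in WT and far lower in KO. Myh7 was highest in rescue and nearly level between WT and KO. KO was 7.45-fold below WT (log2 ratio -2.90, -3.82 to -2.16). Rescue was 3.07-fold above KO (1.62, 0.79 to 2.60) and 2.43-fold below WT (-1.28, -1.81 to -0.79).

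**Figure D1:**
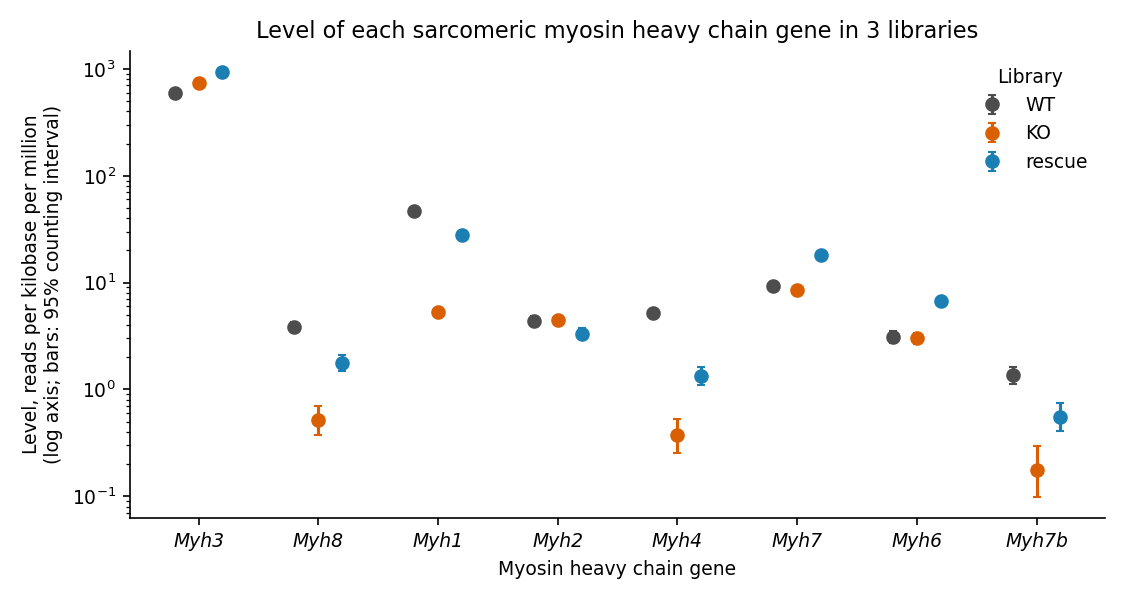
Level of each gene in the WT, KO and rescue libraries, in RPKM on a log axis, with 95% counting intervals as bars (hidden by the points where narrow). Myh3 lies highest in each library, and Myh8, Myh1, Myh4 and Myh7b are lowest in KO, while Myh7 and Myh6 are highest in rescue.

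In all, 0 of the 8 genes were at least 2-fold higher in KO than in WT, where 5.35% of 13381 genes with a mean of at least 1 CPM (the count relative to library size) were. At least 2-fold lower were 4 of 8 (Myh8, Myh1, Myh4 and Myh7b), beside 4.07% of all genes. For rescue against KO, 6 of 8 were at least 2-fold higher, beside 1.3% of all genes, and 0 were at least 2-fold lower, beside 0.575%. The 2 that did not reach 2-fold were Myh3, which was higher by less, and Myh2, which was lower. For rescue against WT, Myh6 alone was at least 2-fold higher, beside 4.59% of all genes, and 3 (Myh8, Myh4 and Myh7b) were at least 2-fold lower, beside 3.06%. All 8 passed the CPM filter.

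The median log2 ratio of the 8 genes was -1.502 for KO against WT, 1.39 for rescue against KO and -0.56 for rescue against WT. The medians of all 13381 genes were 0.00051, 0.0029 and 0.0099. The comparisons share libraries (KO, WT and rescue each enter a pair of them), so they are not independent. Myosin transcripts are long, and over 10283 genes the trend of the log2 ratio with transcript length stood at 0.11 for KO against WT and -0.12 for rescue against KO at the length of Myh1. These have the opposite sign to the ratios of Myh1, Myh4, Myh8 and Myh7b. With the trend taken off, the Myh3 ratio went from 0.33 to 0.22 for KO against WT and from 0.32 to 0.44 for rescue against KO, and the numbers of genes past 2-fold stayed as given.

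**Figure D2:**
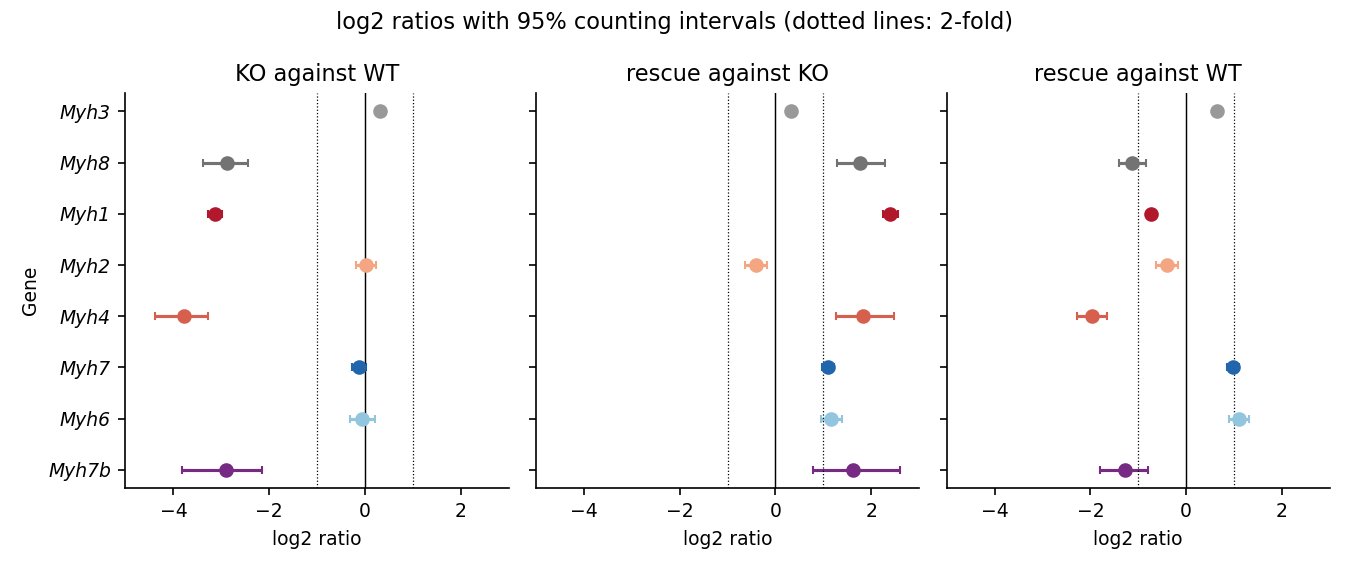
log2 ratios of the 8 genes in the 3 comparisons with 95% counting intervals as bars, and dotted lines at 2-fold. Myh8, Myh1, Myh4 and Myh7b lie below the 2-fold line in KO against WT, and 6 genes lie above it in rescue against KO.

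**Figure D3:**
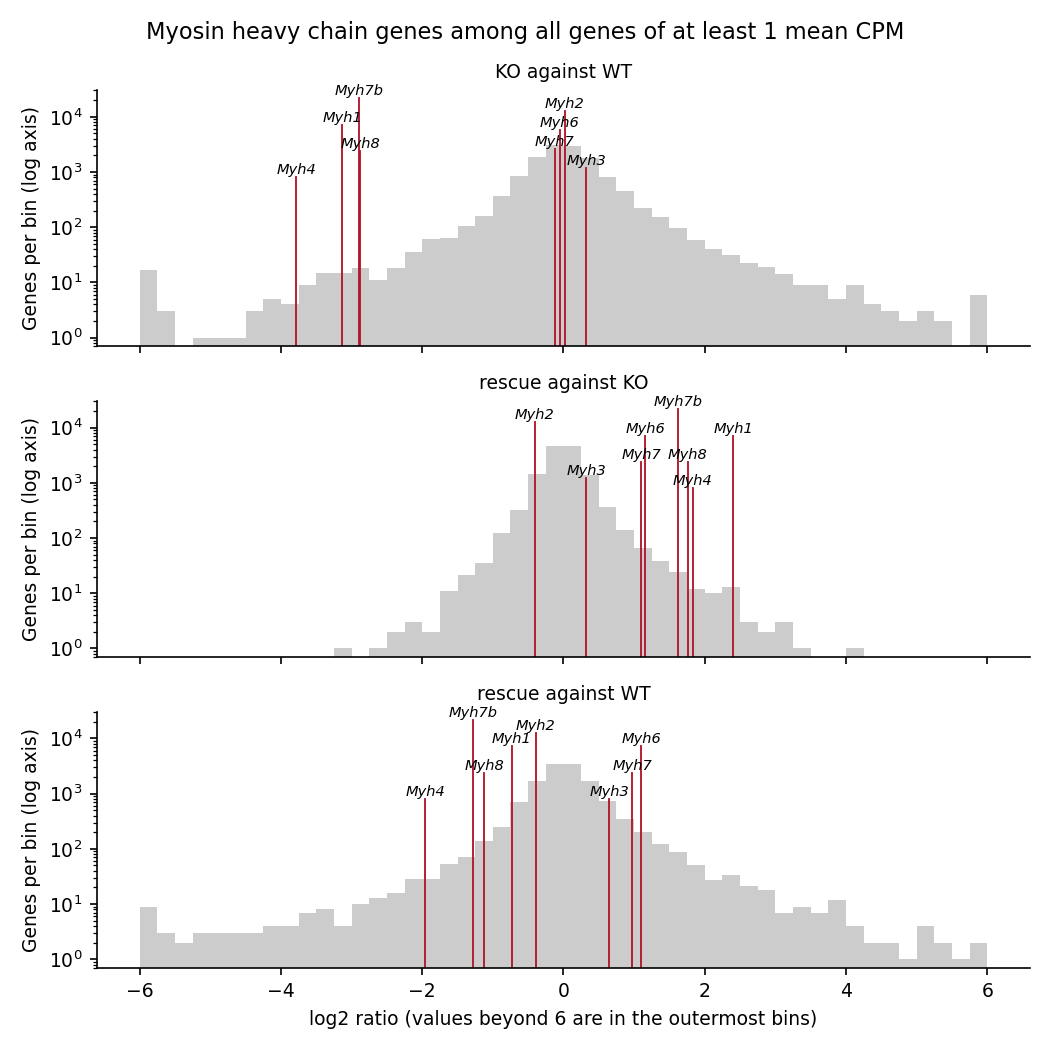
Histograms of the log2 ratios of 13381 genes (gene number on a log axis), with red lines at the 8 myosin heavy chain genes. Line height only separates the names. Myh4, Myh1, Myh7b and Myh8 stand in the lower tail for KO against WT, and Myh1 stands in the upper tail for rescue against KO.

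The order of the levels differed between libraries. In WT it ran Myh3, Myh1, Myh7, Myh4, Myh2, Myh8, Myh6 and Myh7b, and the neighbours Myh4 and Myh2, Myh2 and Myh8, and Myh8 and Myh6 had overlapping counting intervals. In KO it ran Myh3, Myh7, Myh1, Myh2, Myh6, Myh8, Myh4 and Myh7b, where Myh1 and Myh2, Myh8 and Myh4, and Myh4 and Myh7b overlapped. In rescue it ran Myh3, Myh1, Myh7, Myh6, Myh2, Myh8, Myh4 and Myh7b, and only Myh8 and Myh4 overlapped. The level of Myh7 was 0.199 times that of Myh1 in WT, 1.61 times in KO and 0.650 times in rescue, so slow Myh7 exceeded fast Myh1 in KO alone.

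The summed level of the 8 genes was 668 in WT, 767 in KO and 990 in rescue, with KO 1.15-fold above WT, and rescue was 1.29-fold above KO. Without Myh3 the sums were 73.7, 22.3 and 59.9. Both comparisons with WT then turned around, while rescue stayed above KO. KO was 3.31-fold below WT (log2 ratio -1.73, -1.80 to -1.65), and rescue was 2.69-fold above KO and 1.23-fold below WT.

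Of this summed level, Myh3 made up 89.0% in WT (88.7 to 89.2), 97.1% in KO (97.0 to 97.2) and 93.9% in rescue (93.8 to 94.1). The 3 adult fast chains together made up 8.40% in WT (8.17 to 8.63), 1.32% in KO (1.23 to 1.41) and 3.30% in rescue (3.18 to 3.43). Myh7 and Myh6 together made up 1.85%, 1.501% and 2.52%. Rescue lay between the other libraries in its share of fast chains and above both in its share of slow and cardiac chains. These ranges are exact binomial (Clopper-Pearson) intervals of the share of counts, converted to the share per kilobase.

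Among the 3 adult fast chains alone, Myh1 held 82.9% in WT, 52.5% in KO (49.1 to 55.9) and 85.7% in rescue. Myh2 held 7.78%, 43.8% (40.4 to 47.2) and 10.2%. Myh4 held 9.27%, 3.69% (2.52 to 5.19) and 4.09%. In rescue the share of Myh4 was near that in KO. Counts that shared 100-base windows could add were also taken off, as described with the sequences further on. Myh2 then held 1.32% in WT, 43.8% in KO and 3.88% in rescue. Myh1 held 90.7%, 54.1% and 93.9%, and Myh4 8.01%, 2.13% and 2.196%. The counts of Myh1 per count of Myh4 were 8.94 in WT, 14.2 in KO and 21.0 in rescue, and the ratio in rescue was 2.35-fold that in WT (log2 odds ratio 1.23, 0.92 to 1.55). Within the slow and cardiac pair, Myh6 held 25.1% in WT (22.5 to 27.9), 26.1% in KO (23.3 to 29.0) and 26.9% in rescue (25.0 to 28.8). The log2 odds ratio of Myh6 to Myh7 was 0.07 for KO against WT (-0.22 to 0.37) and 0.06 for rescue against KO (-0.19 to 0.32), so no difference in their balance was detectable at this depth.

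**Figure D4:**
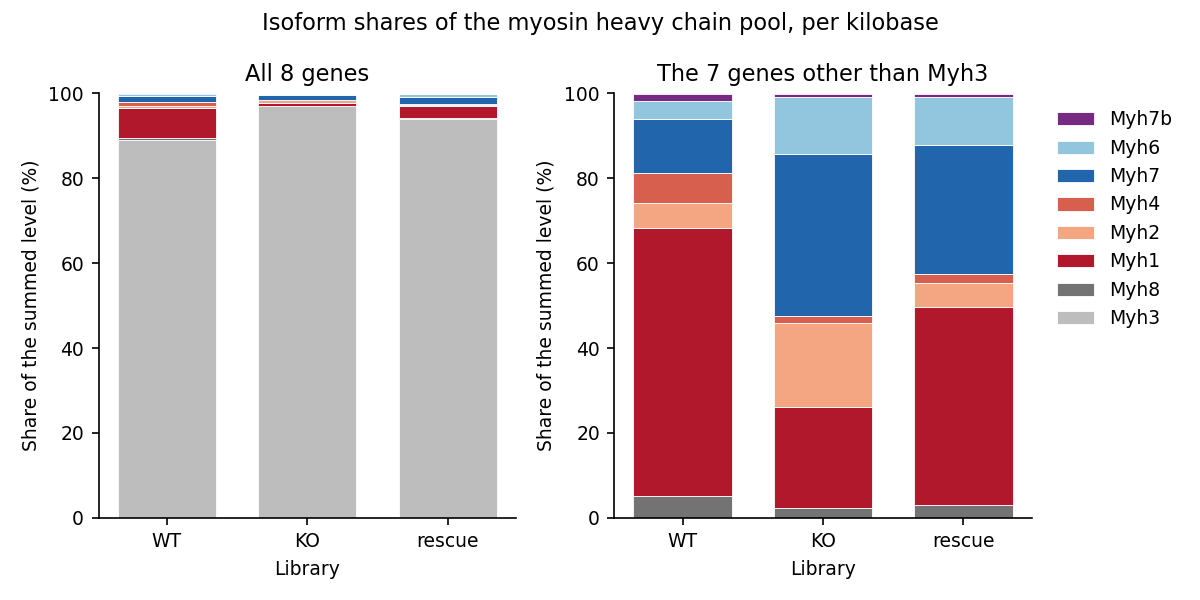
Share of the summed level (%, per kilobase) held by each isoform in each library, for all 8 genes (left) and for the 7 other than Myh3 (right). Myh3 fills 89.0 to 97.1% of the left bars. On the right, Myh1 is the widest part in WT and rescue and Myh7 is the widest in KO.

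Several of these genes are near copies of each other, which limits how well short reads can tell them apart. The coding sequences of Myh1 and Myh2 were 91.1% identical, those of Myh1 and Myh4 90.2%, and those of Myh6 and Myh7 91.7% (GENCODE transcripts of GRCm38). Myh7b had at most 73.9% identity to any of the others. A stretch of 60 coding bases that holds 19 differing positions among the fast chains is printed to show what tells their reads apart. It runs from coding base 133 to 192 of genes on chromosome 11, with the differing positions in capitals.
Myh1: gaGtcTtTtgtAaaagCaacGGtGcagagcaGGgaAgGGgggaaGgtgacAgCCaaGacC
Myh2: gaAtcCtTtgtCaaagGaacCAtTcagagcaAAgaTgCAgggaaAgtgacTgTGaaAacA
Myh4: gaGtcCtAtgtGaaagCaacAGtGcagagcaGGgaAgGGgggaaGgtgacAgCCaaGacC

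Elsewhere long stretches are identical. Of all windows of 100 bases in the Myh1 transcript, 7.59% were also in Myh2 and 2.22% in Myh4, and the longest run shared by Myh1 and Myh2 was 268 bases. In Myh7, 11.2% of the windows were in Myh6. Myh7b shared none. The sources used here do not say how reads fitting several genes were counted, how long the reads were or whether strand was used.

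What such sharing could add with reads of 100 or 150 bases was therefore taken off each gene, as an alternative chosen after seeing the data. Shorter reads would share more, as 19.7% of the 50-base windows of Myh1 were in Myh2. Reads of other myosin genes could add up to 316 counts to Myh2 in WT, 35.4 in KO and 183 in rescue with reads of 100 bases. Taken off, they left Myh2 with 57.2, 336 and 95.7 counts, and its log2 ratio for KO against WT went from 0.02 to 2.57. With windows of 150 bases it was 0.34. The level of Myh2 in KO relative to WT is thus uncertain upward. For Myh1, Myh4 and Myh8 the ratios for KO against WT stayed negative, at -3.22, -4.35 and -3.47 with 100 bases.

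Myh13, an extraocular and laryngeal chain beside Myh8, bears on how much sharing was counted. Had each read fitting 2 genes been counted for both, the shared 100-base windows of the other genes, mostly of Myh3, would have put 624 counts on Myh13 in WT, 723 in KO and 919 in rescue. It had 50, 57 and 141. With windows of 150 bases the values would have been 159, 192 and 241, still above the counts found. At these lengths shared reads were thus not all counted for both genes at Myh13. The subtraction assumes that they were, so it may take too much off Myh2 as well.

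**Figure D5:**
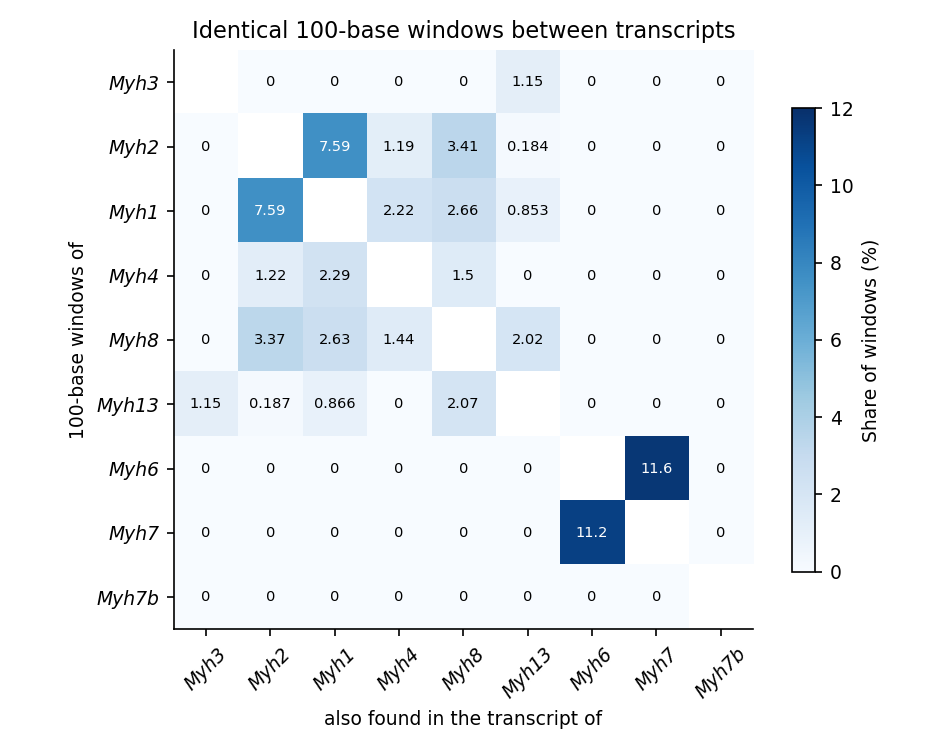
Share (%) of the 100-base windows of each myosin transcript (rows) found unchanged in each other transcript (columns). The largest values join Myh6 with Myh7 (11.6% and 11.2%) and Myh1 with Myh2 (7.59%), and Myh7b shares none.

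The genes lie in clusters. In the order of the deposited tables Myh3, Myh2, Myh1, Myh4, Myh8 and Myh13 follow each other on chromosome 11, Myh6 and Myh7 are neighbours on chromosome 14, and Myh7b is on chromosome 2. Neighbours differed within the fast cluster: Myh2 had nearly the same count in WT and KO, while Myh1, Myh4 and Myh8 on its far side from Myh3 were 7.36-fold to 13.8-fold lower. Most non-coding RNAs of these clusters had under 10 reads. The exception was Mir6923, a microRNA precursor of 72 bases in a Myh3 intron, with 26, 22 and 47 counts in WT, KO and rescue, which without strand or splicing information cannot be told apart from unspliced Myh3 RNA. Myhas, an antisense RNA between Myh1 and Myh4, had 1 count in WT and 0 in KO and rescue, and 2310065F04Rik, between Myh3 and Myh2, had 8, 0 and 6. Mhrt, the RNA between Myh6 and Myh7, had 0, 2 and 1.

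Start regions of Myh1, Myh4, Myh8 and Myh2 are printed because these neighbours had different ratios in KO. RefSeq windows of GRCm38.p6, from 250 bases before to 50 after each annotated start, covered all 8 genes in 9 windows. Searched on both strands were 6 motifs: the site of MEF2, a transcription factor family of muscle, the E-box (CANNTG), the CArG box, the MCAT motif (CATTCC), the MEF3 site (TCAGGTT) and the TATA box (TATAAA). MEF2 alone set Myh1, Myh4 and Myh8 together apart from Myh2. The windows of Myh1, Myh4 and Myh8 each held 1, with the same letters, ttatttatag, and no other member window held one. Over 32817 windows 3.19% held a MEF2 match and 0.116% held these letters. The genes compared were picked by their ratios in KO, that of Myh2 being uncertain, so the motif search tests nothing. Myh1, Myh4 and Myh8 are neighbours with like letters around the match, so their matches are not independent. In each of the 3 the match overlaps TATA box letters on the other strand. The closest stretch in Myh2, ttatCCatag, had 2 mismatches (capitals). A run of 14 bases, ttctaattatatcc, was in all 4 windows and in no other of the 32817. In the lines that follow, each of 80 bases on the plus strand before the start, the first block of capitals is the MEF2 match (absent in Myh2) and the last block is the shared run.
Myh1 chr11:67199881-67199960: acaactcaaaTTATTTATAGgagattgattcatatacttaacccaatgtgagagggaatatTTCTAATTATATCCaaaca
Myh4 chr11:67237620-67237699: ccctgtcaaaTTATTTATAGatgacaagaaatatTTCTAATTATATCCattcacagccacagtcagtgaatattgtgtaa
Myh8 chr11:67277015-67277094: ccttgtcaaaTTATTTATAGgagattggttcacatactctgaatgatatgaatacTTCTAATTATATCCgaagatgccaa
Myh2 chr11:67170849-67170928: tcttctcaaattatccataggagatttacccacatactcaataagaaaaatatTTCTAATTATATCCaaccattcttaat

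Of the other motifs, E-boxes numbered 0 in Myh1, 3 in Myh4, 2 in Myh8 and 0 in Myh2, and 72.3% of all windows held one. MCAT was in Myh1, Myh4, Myh6 and 1 of the 2 Myh7 windows (14.7% of all), the CArG box in Myh4 only (1.63%) and the MEF3 site in none (4.07%). TATA box letters, on either strand, were in all but Myh7 and Myh7b (13.6%). In Myh1, Myh3 and Myh4 they stood on the plus strand from -32, -29 and -31. The only ones in Myh8 were on the minus strand within its MEF2 match. Those of Myh2 and Myh6 lay after the annotated start. A match is a description of letters and not of binding, which was not measured here. Myh7b, which was 7.45-fold lower in KO, had no MEF2 match in its window. Mef2c, a gene of the MEF2 family, had 1289, 305 and 530 counts in WT, KO and rescue, a log2 ratio of -2.05 for KO against WT (-2.24 to -1.87). Mef2a had 5326, 4392 and 3991 (-0.25) and Mef2d 3898, 3758 and 3563 (-0.03). In WT the levels of Mef2a, Mef2d and Mef2c were 40.4, 52.9 and 1.68. The row used for Mef2c is far longer than those of the other genes, which lowers its level. These levels therefore do not compare the MEF2 genes. The part of these genes in the ratios of the myosin genes was not tested.

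Introns of Myh6, Myh7 and Myh7b hold microRNAs known in heart and slow muscle for their ties to myosin expression. Their mature forms are shown for their seeds (bases 2 to 8, in capitals), which are the same in the Myh6 and Myh7 microRNAs and end in another base in that of Myh7b. The sequences are from RefSeq of GRCm38.p6.
miR-208a-3p (Myh6) chr14:54949072-54949093, minus strand: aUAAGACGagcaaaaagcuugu
miR-208b-3p (Myh7) chr14:54975710-54975731, minus strand: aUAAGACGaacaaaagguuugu
miR-499-5p (Myh7b) chr2:155622893-155622913, plus strand: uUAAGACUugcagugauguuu
The precursors Mir208a, Mir208b and Mir499 had 0 counts in all 3 libraries, also where Myh7 and Myh6 were highest. The labels name no small RNA library, and mature microRNAs were not analysed here.

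Among other myosin heavy chains, non-muscle Myh9, which drives cell shape and division, had 25716, 29887 and 24756 counts in WT, KO and rescue (log2 ratio 0.24 for KO against WT). Non-muscle Myh10 had 1420, 2374 and 1947 (0.77). Of the 4 of 7 listed that passed the CPM filter, none was 2-fold different in KO against WT. In rescue against KO 1, Myh13, was 2-fold higher (1.30, 0.86 to 1.78), beside 1.3% of all genes. Its 57 counts in KO and 141 in rescue were fewer than shared 100-base windows would add if counted for both genes (723 and 919). At that length shared reads were thus not all counted there. How many of its counts came from reads of other myosin genes was not tested. Smooth muscle Myh11 had 4, 2 and 6 counts.

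The light chains bind the neck of the heavy chain. Of 9 genes of light chains and their kinases, 7 passed the filter. In KO against WT 0 were 2-fold higher and 1 was 2-fold lower, beside 5.35% and 4.07% of all genes. The lower one was Mylk2, the skeletal light chain kinase (376, 163 and 246 counts, log2 ratio -1.18, -1.45 to -0.91). In rescue against KO 1 was 2-fold higher, beside 1.3% of all genes. This was Myl2, the slow and ventricular regulatory chain. Its counts were 976, 925 and 2504 in WT, KO and rescue (log2 ratio 1.44, 1.33 to 1.55, for rescue against KO), which is the pattern of Myh7 and Myh6. The list median was -0.51 for KO against WT and 0.69 for rescue against KO, with all genes at 0.00051 and 0.0029.

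Thick filament partners and myosin chaperones were mostly within 2-fold. Of 20 listed, 19 passed. Mybpc1, the slow myosin-binding protein C, was the 1 gene at least 2-fold lower in KO, beside 4.07% of all genes. It had 223, 2 and 27 counts in WT, KO and rescue (log2 ratio -6.46, -9.83 to -4.91). Mybpc2, the fast form, had 230, 251 and 534 counts and lay 2.13-fold above KO in rescue. There Mybpc1 was at least 2-fold above KO too (log2 ratio 3.46, 1.77 to 6.88), as were 1.3% of all genes. The list median was -0.15 for KO against WT and 0.23 for rescue against KO.

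Of 41 listed regulators of fibre type myosin genes, 35 passed. In KO against WT 3 were higher by 2-fold or more and 4 were lower, beside 5.35% and 4.07% of all genes. In rescue against KO 0 were either, beside 1.3% higher and 0.575% lower of all genes. Nfatc4, a calcineurin-responsive factor, had 10, 104 and 120 counts in WT, KO and rescue (log2 ratio 3.34, 2.47 to 4.51, for KO against WT). Esrrg, a nuclear receptor of oxidative metabolism, had 5, 51 and 37 (3.25, 2.06 to 5.06). Hdac9, a class IIa deacetylase that binds MEF2 proteins, had 179, 39 and 55 (-2.16, -2.71 to -1.67). The list median was 0.08 for KO against WT and -0.07 for rescue against KO.

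The cells were checked against markers of myotubes and of other cell types. All 8 myotube markers passed the filter, with summed levels of 10259 CPM in WT, 9926 in KO and 12214 in rescue. At least 2-fold lower in KO than in WT were 3 (Ckm, Mymx and Actn2), beside 4.07% of all genes. Others were higher in KO than in WT, with log2 ratios of 0.47 for Myog (0.43 to 0.50) and 0.22 for Acta1. Des (-0.47), Mymk (-0.24) and Tnnt3 (-0.22) were lower by less than 2-fold. Of 6 myoblast markers 4 passed, with sums of 3063, 2249 and 2300 CPM. Of 6 fibroblast markers 4 passed, with sums of 6746, 13089 and 10994 CPM, set mainly by Fn1 (84197, 159814 and 133186 counts). The fibroblast markers did not go 1 way. Col1a1 had 5243, 18763 and 16217 counts and Pdgfra 112, 240 and 191, while Dcn had 5177, 1787 and 1792, Lum 9, 0 and 1, and Thy1 0, 1 and 0. In bulk RNA, fewer myotubes and less of a transcript per myotube cannot be told apart, and the part of these shifts in the myosin ratios was not tested.

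Of the 6 heart markers, which include Myh6, Myl7 and Nppa were at 0 in all libraries and 4 passed the filter, with sums of 56.0, 58.6 and 81.3 CPM. Besides Myh6, Gata4 had 407, 429 and 425 counts, Nkx2-5 56, 80 and 81, and Tnni3 60, 50 and 58. Of 5 smooth muscle markers 3 passed, with sums of 3646, 4349 and 5330 CPM, most of it Acta2 (48154, 57215 and 70373 counts), which differentiating myoblasts also express. Endothelial Pecam1 and the leukocyte genes Ptprc and Adgre1 were at 0. Of 4 endothelial markers 0 passed (sums of 1.28, 0.580 and 0.799 CPM), and of 4 leukocyte markers 1 did (1.85, 4.13 and 3.12 CPM).

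The genes whose pattern lay closest to each member were taken as the 3 nearest, by Euclidean distance over the 2 log2 ratios that involve KO, among 8990 genes whose highest library had 200 counts or more. Each rests on 3 libraries. For Myh1 they were Nrxn3, a synaptic adhesion protein (207, 27 and 114 counts, distance 0.418), Fabp3, the muscle fatty acid binding protein (268, 50 and 183, distance 0.920), and Pgm5, a protein of muscle adhesion sites (1977, 310 and 944, distance 0.931). The same 3 genes were nearest to Myh8 and to Myh7b, with Pgm5 the closest (distances 0.280 and 0.252). For Myh4, Bcam (250, 22 and 44 counts), Slc2a6 and Nrxn3 were nearest but none was near (0.903 to 0.924). Fabp3 and Pgm5 were about as far from Myh1.

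Smpx, a small protein of striated muscle, was nearest to both Myh7 and Myh6, with 529, 544 and 1144 counts in WT, KO and rescue (distances 0.191 and 0.145). Plet1 and Galnt6 followed for Myh7, and Mybpc2 and Myl2 for Myh6. For Myh2 the nearest were Dennd4c, Strn and Ier5l, and for Myh3 Smpdl3b, Tmem189 and Nudt22. All 6 lay at a distance of 0.0490 or less from their member.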

How the data were processed

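RNA of 3 C2C12 libraries was analysed, 1 per group. Reads were handled with featureCounts 2.0.0, HISAT2 2.2.1 and cutadapt 1.9.1 on build GRCm39, per the submitters' processing notes. Each deposited table gives a raw count per transcript row, whole and not normalized, over 139023 rows. The RPKM deposited by the authors is the count per kilobase scaled to the table's total, and the TPM deposited by the authors is scaled to a fixed sum. Only counts were analysed. Rows of 1 gene hold nearly equal counts, so the row with the highest total stands for the gene. TMM factors from edgeR 4.0.16 (R 4.3.3) scaled the counts, and 0.5 was added before log2 ratios were taken. Intervals are exact conditional (Clopper-Pearson) 95% intervals for counting error. The 13381 genes with a mean of at least 1 CPM gave the background, and 2-fold was the threshold. No test was possible. The ratio script was tested on simulated data. Transcript lengths come from the tables.

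Named genes were all 8 members, Dnm1l, up to 4 genes of each list with the largest ratios, and the 3 genes nearest to each member with at least 100 counts in its highest library, among genes with at least 200. Symbols of LOC, Gm or Rik type were left out of the nearest genes. Further genes, such as neighbours, Fn1 and heart markers, were named after their values were seen. Members and lists were chosen with earlier results of these data known. Sequences are from RefSeq and GENCODE tables of GRCm38, another build than that of the counts.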

Additional observations from a re-analysis of the deposited data

How the results depend on the processing

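Without Myh3 the log2 ratio of the summed level reversed, from 0.20 to -1.73 for KO against WT and from 0.57 to -0.30 for rescue against WT, and for rescue against KO it was 1.43 in place of 0.37. Scaled by total gene counts it was 0.35 for rescue against KO and 0.54 for rescue against WT, and with DESeq2 size factors 0.55 for rescue against WT. Asking that the whole counting interval lie beyond 2-fold left 3 of 6 genes higher in rescue against KO, 0 of 1 higher and 1 of 3 lower in rescue against WT. Summing all rows of a gene put the adult fast share at 7.51% in WT, 0.989% in KO and 2.98% in rescue, and leaving Myh3 out of the pool put it at 76.1%, 45.3% and 54.5%. Without the CPM filter, genes at least 2-fold higher and lower numbered 3332 and 3605 in place of 716 and 544 for KO against WT, 2861 and 2413 in place of 174 and 77 for rescue against KO, and 3429 and 3292 in place of 614 and 410 for rescue against WT. Taking off shared 100-base windows, an alternative added after seeing the data, put Myh2 at 2.57, -1.80 and 0.77 for KO against WT, rescue against KO and rescue against WT, with 150-base windows at 0.34, -0.64 and -0.31, and moved Myh8 to -3.47 for KO against WT and -1.45 for rescue against WT and Myh4 to -2.64 for rescue against WT. The 100-base windows put the adult fast share at 7.69%, 1.19% and 2.997% in WT, KO and rescue. No paired analysis was possible because each group has 1 library. Depth limits Myh7b and Myh4 most, with 15 and 31 counts in KO.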
